A study of Mus musculus with 38 samples.

Results

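The genes described are those of mouse liver whose symbol starts with H1f, H2ac, H2bc, H3c or H4c followed by a number, the names of the replication-dependent histone genes and of the linker histones named alongside them. They were 50 of the 22485 named genes of the array, measured by 55 of its features, and the feature with the highest mean stood for a gene that had several. By class they were 10 H1f, 14 H2ac, 10 H2bc, 8 H3c and 8 H4c genes. 37 of them lie on chromosome 13 and 9 on chromosome 3, where mouse replication histone genes are clustered. The other 4 lie outside those clusters, so the name of clustered replication histones does not hold for them: H1f10 and H1f8 on chromosome 6, H1f7 on chromosome 15 and the pseudogene H1f11-ps on chromosome 19. H1f10 is a replacement linker histone, and H1f7 and H1f8 are linker histones of germ cells. Lying on chromosome 13 or 3 does not by itself make a gene replication-dependent. Whether each gene there is so was not checked, and the group is named by symbol alone. The genes were chosen by symbol, but the group was proposed, and in that sense selected on measured values. H3c15 and H2ac23 had been seen to be higher 60 min after glucose in IR floxed liver. That comparison is therefore given below as a description, and nothing is read from its test counts.

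Replication histones are the bulk H2A, H2B, H3, H4 and H1 proteins that package newly copied DNA, and their genes are transcribed mainly while a cell copies its genome. The genes have no introns, and their messages normally end in a stem-loop that is bound by Slbp in place of a poly(A) tail. Adult hepatocytes seldom divide, and a share of histone messages in resting and differentiated cells carries a poly(A) tail. The labels name a low input labelling kit, a kind that primes on poly(A).

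All mice were males of 11 to 12 weeks whose background mixed FVB/N with C57Bl/6. Their liver RNA was hybridised to two-colour arrays with 1 mouse in each dye channel, and each channel's log2 intensities were used as a sample. IR floxed mice carry loxP sites in the insulin receptor gene Insr and served as the controls of LIRKO mice, in which Cre driven by albumin deletes the receptor in hepatocytes alone. LIRFKO mice lack both Insr and the transcription factor gene Foxo1 in hepatocytes, and IR/FoxO1 floxed mice are their Cre-free controls. Livers were taken after a fast, which the labels give both as overnight and as 24 h, after 6 h of refeeding, or 60 min after glucose. The fasted, refed and glucose groups held 4, 4 and 3 IR floxed mice, 3, 4 and 3 LIRKO mice, and 3, 4 and 3 LIRFKO mice, and 3 fasted and 3 refed IR/FoxO1 floxed mice had no glucose group beside them. That made 37 mice in 11 groups, named below by their sample titles, which end in a mouse number. In the titles IR.fl stands for IR floxed, IR.KO for LIRKO, IRF.KO for LIRFKO and IRF.fl for IR/FoxO1 floxed mice, and GTT marks the glucose mice.

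The promoters of 7 genes are shown first. 6 of them were called in a comparison of glucose or refed with fasted mice, and H2ac18 carries the genotype result. H2bc4, which was called after glucose in LIRFKO liver, is not shown because it had no promoter in the RefSeq table. Each line gives the 150 bases before the annotated start, 5′ to 3′ on the gene's strand, from RefSeq on GRCm38.p6, and ends at the base before the start. Capitals mark CCAAT on either strand (ATTGG on the other), the octamer ATTTGCAT on either strand (ATGCAAAT on the other), and TATAA on the gene's strand.
H2ac4 (chr13:23750938-23751087, plus strand): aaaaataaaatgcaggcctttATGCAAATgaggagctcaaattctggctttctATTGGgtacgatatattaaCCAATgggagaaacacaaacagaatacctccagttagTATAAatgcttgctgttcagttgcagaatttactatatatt
H2ac23 (chr13:21810217-21810366, plus strand): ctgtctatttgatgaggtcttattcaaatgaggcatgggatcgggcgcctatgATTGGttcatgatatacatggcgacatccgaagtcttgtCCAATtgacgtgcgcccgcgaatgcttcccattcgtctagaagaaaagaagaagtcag
H2ac11 (chr13:22042950-22043099, minus strand): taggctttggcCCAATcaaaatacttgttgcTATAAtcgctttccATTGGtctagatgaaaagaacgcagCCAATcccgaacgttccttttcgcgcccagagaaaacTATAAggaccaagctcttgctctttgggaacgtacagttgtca
H2bc14 (chr13:21721894-21722043, plus strand): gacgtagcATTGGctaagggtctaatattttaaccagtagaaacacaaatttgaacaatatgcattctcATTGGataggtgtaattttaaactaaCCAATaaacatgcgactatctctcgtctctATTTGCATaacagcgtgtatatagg
H2bc18 (chr3:96269550-96269699, plus strand): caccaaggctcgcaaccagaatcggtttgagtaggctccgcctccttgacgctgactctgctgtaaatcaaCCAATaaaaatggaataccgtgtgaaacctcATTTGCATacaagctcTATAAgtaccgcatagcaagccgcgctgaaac
H3c15 (chr3:96239128-96239277, minus strand): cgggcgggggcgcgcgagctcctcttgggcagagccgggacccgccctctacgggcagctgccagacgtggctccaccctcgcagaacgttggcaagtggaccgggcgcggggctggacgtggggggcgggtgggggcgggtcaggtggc
H2ac18 (chr3:96245347-96245496, plus strand): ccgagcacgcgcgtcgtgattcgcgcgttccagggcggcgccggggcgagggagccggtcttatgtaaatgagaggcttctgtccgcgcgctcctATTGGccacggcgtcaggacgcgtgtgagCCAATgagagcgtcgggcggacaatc

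H2ac4, an H2A gene, and H2bc18, an H2B gene, hold all 3 letter patterns in these windows, and H2bc14 holds the octamer and CCAAT. H2ac23, H2ac18 and H2ac11, which are H2A genes too, hold CCAAT without the octamer, and H2ac11 also holds TATAA. H3c15, which encodes H3, holds none of the 3, and that says only that these letters are not in its window. Of the 50 genes, 44 had a promoter in the RefSeq table. Over the 250 bases before the start, CCAAT on either strand stood in 35 of these 44 (79.5%), against 33.8% of all 32851 promoters of the table. The octamer on either strand stood in 11 of 44 (25%) against 1.6% of all promoters. Those 11 were 6 of 14 H2ac and 5 of 8 H2bc promoters, and it was in 0 of 9 H1f, 0 of 6 H3c and 0 of 7 H4c promoters. TATAA on the gene's strand stood in 22 of 44 (50%) against 16% of all. Some genes are near copies: the windows of H3c14 and H3c15 share an unbroken run of 231 of 300 bases and those of H2ac18 and H2ac19 one of 219, while H2ac4 and H2ac23 share no run over 9 bases. The probes' own sequences were not used here, so how far a probe also binds the message of a near copy was not tested. 4 H2ac genes, H2ac1, H2ac8, H2ac22 and H2ac23, stand head to head with H2bc1, H2bc8, H2bc22 and H2bc23.

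Group means of the targeted genes followed the labels, and some single mice stood apart. Mean Insr was between 7.52 and 8.57 in the 5 floxed groups and between 6.15 and 7.21 in the 6 knockout groups, and mean Foxo1 was between 6.33 and 6.92 in LIRFKO liver against 9.17 or above elsewhere. Insr of single mice overlapped between labels: it was 7.81 in IR.KO_GTT_690 and 7.40 in IR.KO_Fast_545, while IRF.fl_Refed_473 had 7.36 and IR.fl_Refed_566 had 7.77. Within each state, every LIRKO mouse was below every IR floxed mouse in Insr. The animal titled IRF.fl_Fast_523, labelled a fasted IR/FoxO1 floxed mouse, had Foxo1 at 6.77, within the range of LIRFKO mice, and Insr at 6.90, below all other floxed mice. Calls that rest on it are given with and without it. Differences of single genes from fasted IR/FoxO1 floxed mice include it unless stated. A further sample, IRF.KO_GTT_724, whose labels conflict on its treatment, was in no comparison. Glucose mice carry higher numbers (IR.fl_GTT_659 lowest) than all fasted (IR.fl_Fast_552 highest) and refed (IR.fl_Refed_566 highest) mice, so glucose cannot be told apart from whatever else differed with number. The 8 hepatocyte markers averaged 13.84 to 15.13 over the mice, and their group means were lowest in glucose (14.34) and refed (14.38) LIRKO liver. In bulk liver, fewer cells of a type and less RNA per cell cannot be told apart.

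Levels of the 50 genes ran from probes at the bottom of the scale to probes near its top. The median of all gene means was 6.17. 28 of the 50 lay above it and the other 22 were dim, which leaves little room to see a fall. The 4 with the highest means were H2bc4 (13.19), H2ac12 (12.97), H2ac10 (12.93) and H2ac19 (12.89), and the 2 with the lowest were H2ac6 (5.32) and H3c8 (5.34). Probes differ in how brightly they bind, so this order is one of signals and not of transcripts. 7 of 8 H4c and 10 of 14 H2ac genes were above the median level, against 4 of 10 H2bc, 4 of 8 H3c and 3 of 10 H1f genes.

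In IR floxed liver 60 min after glucose, a few H2A and H3 genes were higher than after the fast, and most of the 50 moved little. H3c15 was 7.21, 7.08, 7.15 and 8.07 in the 4 fasted mice and 10.93, 8.41 and 9.36 in the 3 glucose mice. All glucose mice were above all fasted mice, with IR.fl_GTT_699 far above the others, and the difference of 2.29 ± 0.47 (SE, log2) became 1.55 without IR.fl_GTT_699. H2ac23 was 8.80, 8.74, 9.14 and 9.56 after the fast and 11.01, 10.19 and 10.62 after glucose, a difference of 1.65 ± 0.33. H2ac4 was 6.23, 6.88, 6.21 and 6.71 against 7.37, 7.85 and 7.86, a difference of 1.25 ± 0.24. In each of these genes the groups did not overlap. H3c14, the near copy of H3c15, differed by 0.93 ± 0.20, H1f2, a linker histone, by 0.89 ± 0.43 and H2ac11 by 0.71 ± 0.20. The largest differences downward were those of H1f4 (-0.64), H3c3 (-0.33) and H2bc6 (-0.25). 3 of 50 genes had an adjusted p under 0.05 (limma, adjusted over all genes), where 0.16% (0.142% higher and 0.0178% lower) of all genes did, and nothing is read from that count because this comparison led to the choice of genes. The count was 0 without IR.fl_Fast_542 or IR.fl_Fast_491 or IR.fl_GTT_699 or IR.fl_GTT_691, 1 without IR.fl_Fast_552 and 6 without IR.fl_GTT_659. The median difference was 0.16 over the 50 genes and 0.00 over all genes. In IR.fl_GTT_699 the neutrophil gene S100a9 (9.46) was also above its value in IR.fl_GTT_659 (6.86) and in IR.fl_GTT_691 (8.59). S100a8 was highest in IR.fl_GTT_699 too, as were Ngp (5.44), Ltf (5.48) and Mpo (5.62) at low levels. Camp (6.55, against 6.80 in IR.fl_GTT_659) and Ly6g (7.27, against 7.32 in IR.fl_GTT_691) were not. Elane was highest of the group in IR.fl_GTT_699 (10.97), but it was about as high in mice of other groups. It was 10.81 in IR.fl_Fast_491, 11.01 in IRF.fl_Fast_516 and 11.05 in IR.KO_GTT_667, so it was not particular to that mouse. The part of these genes in H3c15 was not tested.

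**Figure D1:**
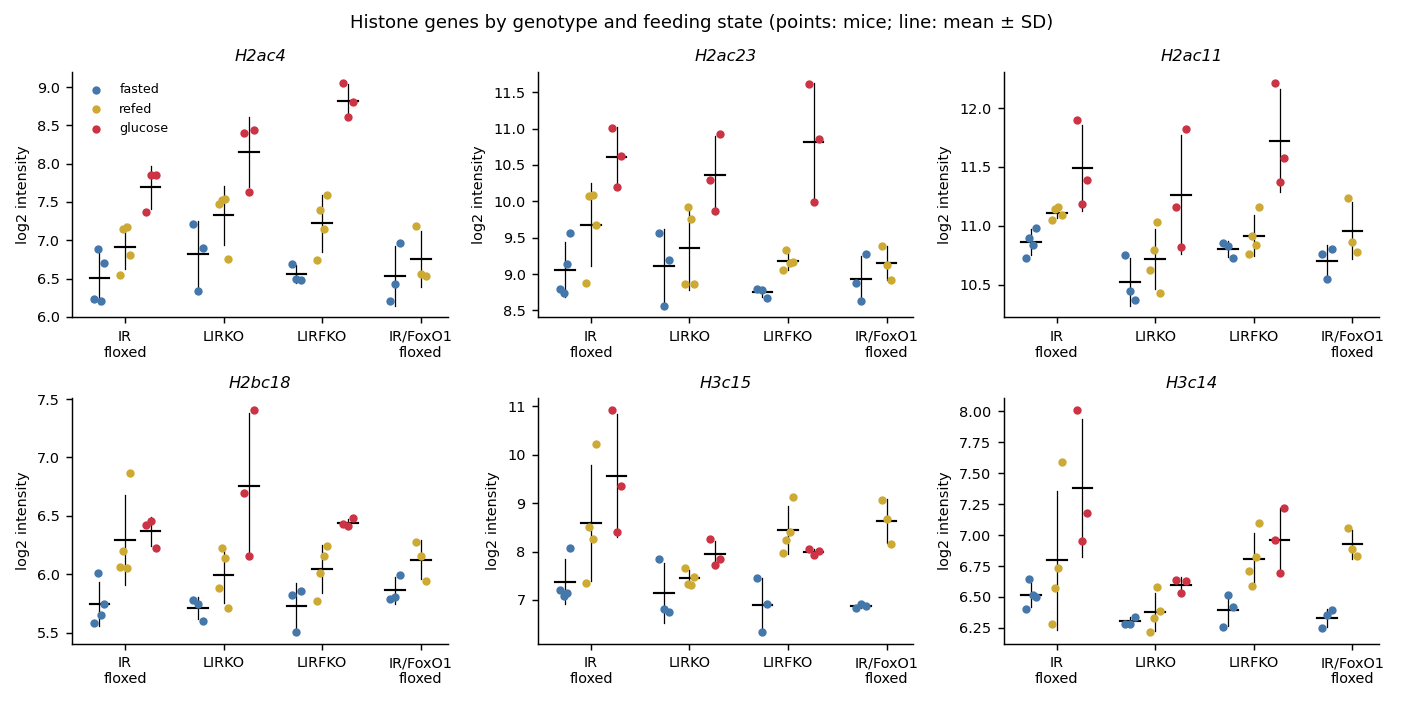
Log2 intensity of 6 histone genes in each of 37 mice by genotype (horizontal axis) and feeding state (colour), with a point per mouse and a bar for the group mean ± SD. H2ac4 after glucose (red) lies above H2ac4 after the fast (blue) in all 3 genotypes with glucose mice, and H3c15 is spread widely in IR floxed glucose and refed mice.

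In liver labelled LIRKO, H2ac4 and H2bc18 were higher after glucose, and both calls rested on 1 mouse. H2ac4 was 7.21, 6.34 and 6.90 in fasted mice and 8.40, 7.63 and 8.44 after glucose, and the groups did not overlap. The rise was 1.36 ± 0.25 (SE, log2), or 2.57-fold, with an adjusted p of 0.019 (limma). H2bc18 was 5.78, 5.75 and 5.60 after the fast and 6.70, 6.16 and 7.41 after glucose, and it rose by 0.97 ± 0.20 (adjusted p 0.0281, limma). H2bc18 is one of the dim genes, with a mean of 6.09 over the 37 mice. 2 of the 50 genes (4%) passed, both upward, where 0.596% (0.325% higher and 0.271% lower) of all genes passed in either direction. Among the genes that did not pass, H2ac23 was 9.56, 8.56 and 9.20 against 10.29, 9.86 and 10.93 (1.19 ± 0.35, adjusted p 0.119, limma) and H2ac11 differed by 0.73 ± 0.21 (adjusted p 0.112, limma). Neither of these overlapped between groups. H3c15 differed by 0.62 ± 0.50 with overlapping groups, and H4c14 by 0.46 and H1f2 by 0.41, also overlapping. That mouse, IR.KO_GTT_690, had Insr at 7.81, against 6.65 and 7.18 in the other glucose LIRKO mice and 7.94 or above in glucose IR floxed mice. Both rises lost their call without it, where the adjusted p was 0.138 for H2ac4 (1.24) and 0.309 for H2bc18 (0.67), and H2bc18 also lost it without IR.KO_Fast_505 (0.0805) or IR.KO_Fast_550 (0.113). Without the dye term and the array block both stood at an adjusted p of 0.052 (limma). The median over the 50 genes was 0.10, against -0.001 over all genes. The median difference of the 8 hepatocyte markers was -0.54 with 0 past the threshold, and its part in the histone values was not tested.

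In LIRFKO liver, which lacks the receptor and Foxo1, 5 core histone genes rose after glucose. H2ac4 was 6.69, 6.50 and 6.48 in fasted mice and 9.05, 8.60 and 8.80 in glucose mice, far apart for the spread within each group. It rose by 2.23 ± 0.24, or 4.7-fold (adjusted p 5.07e-06, limma). H2ac23 was 8.80, 8.78 and 8.67 against 11.61, 9.99 and 10.85, and it rose by 2.17 ± 0.33 or 4.5-fold (adjusted p 0.00118, limma). H2bc4, an H2B gene, was 13.34, 12.73 and 12.50 against 13.84, 13.92 and 14.18, a rise of 1.13 ± 0.19 (adjusted p 0.00213, limma). H2ac11 was 10.85, 10.83 and 10.72 against 12.21, 11.37 and 11.58, a rise of 0.94 ± 0.20 (adjusted p 0.021, limma). H2bc14, also H2B, was 11.39, 10.58 and 10.75 against 11.80, 11.62 and 11.58, a rise of 0.78 ± 0.18 (adjusted p 0.0419, limma). In none of the 5 did fasted and glucose mice overlap.

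The 5 are 10% of the 50 genes, where 0.654% (0.342% higher and 0.311% lower) of all genes passed in this comparison in either direction, and no histone gene fell. The genes that did not pass ran from -0.39 (H2bc6) to 1.37 (H1f2, ± 0.42, adjusted p 0.141, limma). All 8 H4c genes and 13 of 14 H2ac genes had a value above 0, with medians of 0.46 and 0.26, against -0.002 for all genes. The median was 0.19 over the 50 genes and 0.46 over the 28 above the median level.

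1 of the 3 glucose LIRFKO livers differed from the rest in neutrophil genes. The mean of 8 neutrophil genes was 9.34 in IRF.KO_GTT_726 and at most 7.35 in the other 36 mice. Mpo was 9.40 and Camp 9.56 in IRF.KO_GTT_726 against 5.43 and 6.32 in IRF.KO_GTT_725. S100a8, S100a9, Ngp and Ltf were also highest in IRF.KO_GTT_726. Its Ly6g (7.44) and Elane (9.83) lay within the range of the other mice. The mean of 11 macrophage and Kupffer cell markers was 9.23 in IRF.KO_GTT_726, 8.34 in IRF.KO_GTT_727 and 8.85 in IRF.KO_GTT_725. Mouse IRF.KO_GTT_726 also had the highest H2ac4, H2ac23 and H2ac11 of its group. Without it H2ac4 (2.03, adjusted p 0.00113), H2ac23 (1.63, 0.0416) and H2bc4 (1.19, 0.017) kept their call, and 3 of the 50 genes passed. H2ac11 (0.61, 0.277) and H2bc14 (0.72, 0.2) did not. H2ac4 kept its call without any 1 of the 6 mice. H2ac23 and H2bc4 lost theirs without IRF.KO_Fast_525 (adjusted p 0.0507 and 0.115), where 1 gene passed, and H2ac11 also lost its call there (0.233) and without IRF.KO_GTT_725 (0.0536), where 3 passed. H2bc14 lost its call without IRF.KO_Fast_518 (0.194) or IRF.KO_Fast_525 (0.263), or IRF.KO_GTT_727 (0.0677) or IRF.KO_GTT_725 (0.108). All adjusted p are from limma. With the slide as a term in the fit, H2bc14 no longer passed (0.79, adjusted p 0.0668), and without the dye term and the array block neither H2ac11 (0.06) nor H2bc14 (0.142) did. Within the 2 slides that hold both states, H2ac4 was higher after glucose by 2.11 and 2.57 and H2ac23 by 2.05 and 2.94.

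**Figure D2:**
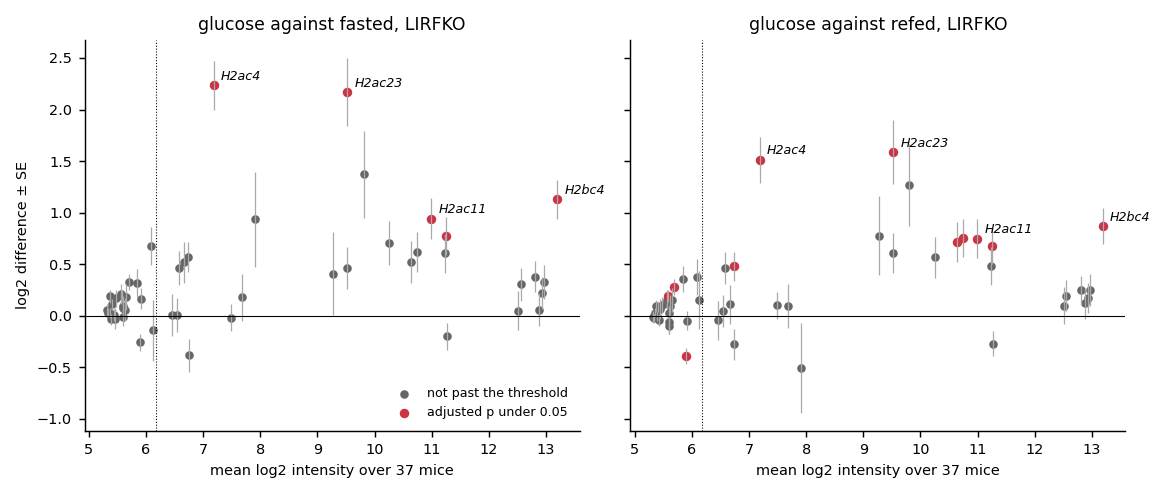
Log2 difference ± SE of each of 50 histone genes (vertical) against its mean log2 intensity over 37 mice (horizontal) in LIRFKO liver, glucose against fasted on the left and glucose against refed on the right. Red points have an adjusted p under 0.05, the dotted line marks the median level of all genes (6.17), and H2ac4 and H2ac23 stand above the other genes that passed on the left.

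Refeeding for 6 h was followed by fewer changes. It is compared with the same fasted mice as glucose, so the values are given side by side. H3c15 was 7.34, 8.51, 8.27 and 10.21 in refed IR floxed mice, overlapping the fasted mice, and differed by 1.29 ± 0.41 (adjusted p 0.0809, limma). In IR/FoxO1 floxed liver H3c15 was 6.84, 6.93 and 6.88 after the fast and 9.07, 8.67 and 8.15 after refeeding, and rose by 1.88 ± 0.47, or 3.69-fold (adjusted p 0.0204, limma). In LIRFKO liver H3c15 was 7.45, 6.33 and 6.91 against 7.97, 8.24, 8.40 and 9.13, a difference of 1.44 ± 0.44 with groups that did not overlap (adjusted p 0.0895, limma). In LIRKO liver it was 7.85, 6.82 and 6.75 against 7.66, 7.33, 7.32 and 7.48, which overlap, a difference of 0.18 ± 0.47. H3c14 differed by 0.33, 0.65, 0.41 and 0.03 in IR floxed, IR/FoxO1 floxed, LIRFKO and LIRKO liver, and its adjusted p was 0.0723 or above (limma).

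In IR floxed liver 1 of 50 genes passed on refeeding, where 3.61% (2.12% higher and 1.49% lower) of all genes did: H2bc18, at 6.06, 6.20, 6.05 and 6.87 against 5.58, 6.01, 5.65 and 5.74, rose by 0.59 ± 0.17 (adjusted p 0.0449, limma). H2bc18 lost its call without any of 5 of the 8 mice, IR.fl_Refed_508 (0.063) and IR.fl_Refed_562 (0.196) and IR.fl_Fast_542 (0.158), IR.fl_Fast_491 (0.109) and IR.fl_Fast_486 (0.1), and a second gene passed without IR.fl_Refed_566. H3c15 there was 0.82 without IR.fl_Refed_562. That mouse also had the highest S100a9 of its group, 9.28 against 7.43 to 8.19, and the highest S100a8 and Ly6g. Other neutrophil genes did not go that way: its Elane (8.91) and Mpo (5.47) were the lowest of the group. Ngp, Camp and Ltf lay within the range of the other mice. The part of these genes in H3c15 was not tested. In IR/FoxO1 floxed liver 1 of 50 passed, H3c15, where 3.54% (2.02% higher and 1.52% lower) of all genes did. H3c15 lost that call without any 1 of the 6 mice (adjusted p 0.0546 to 0.086, limma), and without IRF.fl_Fast_523 in any fit it stood at an adjusted p of 0.0803. Without that mouse H2bc18 in IR floxed liver stood at 0.0515, and without the dye term and the array block H2bc18 (0.127) and H3c15 (0.078) did not pass either. In LIRKO and LIRFKO liver 0 of 50 passed in the limma fit, where 1.85% (0.983% higher and 0.867% lower) and 1.81% (0.987% higher and 0.823% lower) of all genes did, and 2 and 4 genes had an unadjusted p under 0.05. H2ac4 differed by 0.46 ± 0.21 in IR floxed, 0.51 ± 0.24 in LIRKO, 0.72 ± 0.22 in LIRFKO and 0.21 ± 0.24 in IR/FoxO1 floxed liver, smaller values than those after glucose in the 3 genotypes with glucose mice. The medians over the 50 genes were 0.03, 0.05, 0.06 and 0.01 in that order. The largest differences downward were those of H1f4 in IR/FoxO1 floxed (-1.04 ± 0.41) and IR floxed (-0.68 ± 0.36) liver, with adjusted p of 0.199 and 0.411 (limma). The linker gene H1f2 was also lower in IR/FoxO1 floxed (-0.87) and IR floxed (-0.57) liver and higher in LIRKO liver (1.14 ± 0.43), none past the threshold.

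**Figure D3:**
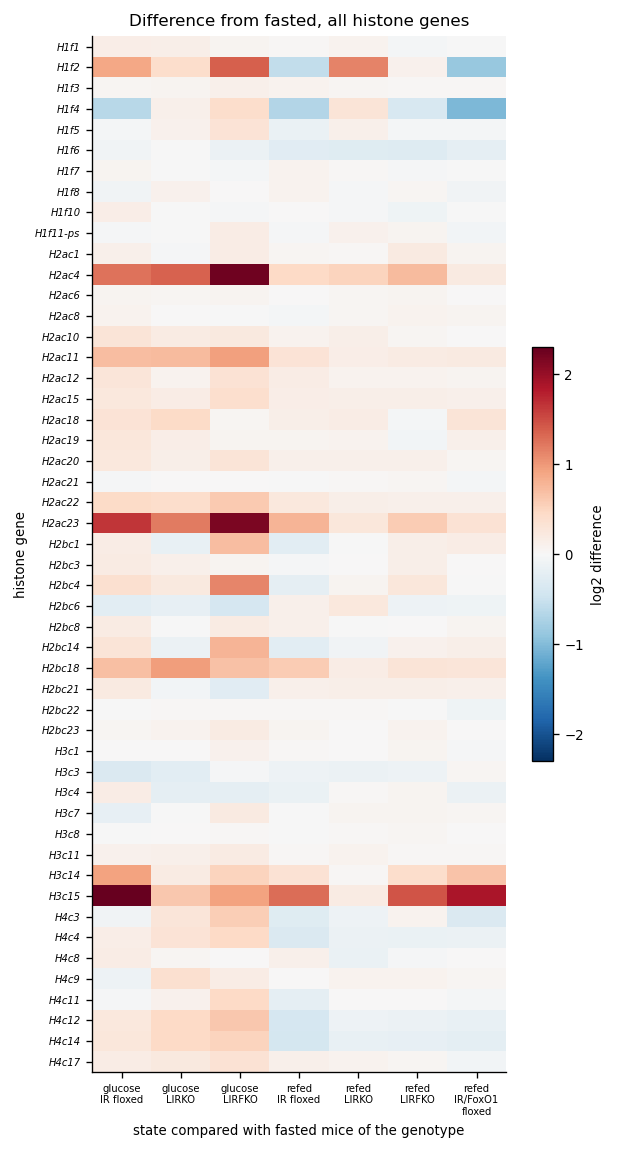
Log2 difference from fasted mice of the same genotype for all 50 histone genes (top to bottom, by class) after glucose in 3 genotypes and after refeeding in 4 (left to right), with red for higher and blue for lower. The largest values are those of H2ac4, H2ac23 and H3c15, and most other cells are pale, near 0.

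Glucose was then compared with refeeding, which leaves the fasted mice out. In LIRFKO liver H2ac4 was 6.74, 7.39, 7.15 and 7.60 in refed mice, below all 3 glucose mice, and was higher after glucose by 1.51 ± 0.22 (adjusted p 0.000262, limma). H2ac23 was 9.05, 9.34, 9.15 and 9.16 in refed mice and was higher after glucose by 1.59 ± 0.31 (adjusted p 0.00332, limma). H2bc4 was higher by 0.87 ± 0.18, the H4 gene H4c12 by 0.75 ± 0.19 and H2ac11 by 0.75 ± 0.19 (adjusted p 0.00427, 0.0162 and 0.018, limma). 10 of 50 genes were higher and 1, H2bc21 at -0.39 ± 0.08 (adjusted p 0.00354, limma), was lower, where 5.15% (2.64% higher and 2.51% lower) of all genes passed. H2bc21 is dim (mean 5.89), as are H2bc8 (5.59) and H4c17 (5.69) among the 10. 4 of the 10 were H4c genes, which encode H4, 3 were H2ac and 3 were H2bc genes. H2ac4 and H2ac23 kept their call without any 1 mouse, while H2bc4 (0.059) and H4c12 (0.111) lost it without IRF.KO_GTT_725, and H2ac11 lost it without IRF.KO_GTT_726 (0.154) or IRF.KO_GTT_725 (0.0646) or IRF.KO_Refed_468 (0.058) or IRF.KO_Refed_524 (0.0501). The count was 3 without IRF.KO_GTT_725, 5 without IRF.KO_GTT_726, IRF.KO_Refed_468 or IRF.KO_Refed_524, and 7 without IRF.KO_Refed_469.

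In LIRKO liver 6 of 50 genes were higher after glucose than after refeeding and 0 lower, where 12.6% (5.87% higher and 6.72% lower) of all genes passed, a share close to that of the histone genes (12%). H2bc18 (0.81 ± 0.18, adjusted p 0.00277) and H2ac4 (0.85 ± 0.22, 0.0109) had the smallest p, followed by H4c14 (0.64), H2ac11 (0.57), H4c12 (0.56) and H2ac23 (0.93), all from limma. H2ac4 was 7.47, 7.53, 7.54 and 6.75 in refed LIRKO mice, all below the glucose mice, while the groups overlapped in the other 5. 5 of 11 macrophage and Kupffer cell markers were lower after glucose than after refeeding in LIRKO liver, and their part in these values was not tested. None of the 6 passed without IR.KO_GTT_690, where H2ac4 stood at 0.72 (adjusted p 0.167) and H2bc18 at 0.46 (0.185), and 2 passed without IR.KO_Refed_558 or IR.KO_Refed_565. With slide as a term H2ac11 (0.0535) and H2ac23 (0.0826) no longer passed, nor did H2ac23 without IRF.fl_Fast_523 (0.0514), nor H4c12 from the mean of its probes (0.0511). In IR floxed liver 5 of 50 were higher and 0 lower, where 6.38% (3.14% higher and 3.25% lower) of all genes passed: H1f2 (1.46 ± 0.41), H2ac4 (0.78 ± 0.23), H4c14 (0.67 ± 0.19), H4c12 (0.63 ± 0.19) and H2bc4 (0.58 ± 0.18), with adjusted p of 0.0273 to 0.0492 (limma). This comparison shares its glucose mice with the one that led to the choice of genes. Its count was 0 without IR.fl_GTT_699 or IR.fl_GTT_691 or IR.fl_Refed_508, 2 without IR.fl_Refed_566 and 3 without IR.fl_Refed_506. With slide as a term H2bc4 (0.0742), H4c12 (0.0703) and H4c14 (0.0626) no longer passed. H4c14 has a second, dim probe (mean 5.50) whose values differed by 0.04, 0.08 and -0.002 in IR floxed, LIRKO and LIRFKO liver. The second probe of H4c12 was higher by 0.42, 0.32 and 0.63.

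The responses were also set against each other, by contrasts within the same fit. The glucose response of LIRFKO less that of LIRKO liver was 0.91 ± 0.26 for H2bc14, 0.90 ± 0.26 for H2bc4, 0.98 ± 0.45 for H2ac23 and 0.87 ± 0.33 for H2ac4. 0 of 50 genes passed in the limma fit, where 0.0578% (0.0267% higher and 0.0311% lower) of all genes did, and 6 had an unadjusted p under 0.05. 1 gene passed without IR.KO_GTT_667. The LIRKO response less the IR floxed response, which uses the IR floxed mice that led to the choice of genes, was -1.67 ± 0.64 for H3c15 and -0.74 ± 0.28 for H3c14. 0 of 50 passed there in the limma fit, where 0% of all genes did, with 5 histone genes at an unadjusted p under 0.05. For refeeding, 0 of 50 passed in the limma fit between LIRKO and IR floxed liver (1 unadjusted, 0.165% of all genes passed) or between LIRFKO and IR/FoxO1 floxed liver (0 unadjusted, 0.00445%). A difference between genotypes in either response was not shown for any histone gene in the fit of all 37 mice.

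LIRKO liver had less H2ac18 than IR floxed liver in every state. H2ac18, an H2A gene, was 12.80, 12.48, 12.75 and 13.14 in fasted IR floxed mice and 11.77, 12.09 and 11.32 in fasted LIRKO mice. It was 13.20, 12.74, 12.66 and 13.10 against 12.05, 11.35, 12.13 and 12.06 after refeeding, and 13.27, 12.94 and 12.92 against 12.02, 11.91 and 12.36 after glucose. The genotypes did not overlap in any state. H2ac18 fell by 1.10 ± 0.18, 1.06 ± 0.17 and 0.97 ± 0.19 on the log2 scale, and the adjusted p were 0.000301, 6.12e-05 and 0.0018 (limma). It kept its call without any 1 mouse (adjusted p up to 0.0333), and within the slides that hold both genotypes it differed by -1.43 to -0.58. In LIRFKO liver H2ac18 was 12.65, 12.38 and 12.68 after the fast, against 12.78, 12.38 and 12.40 in IR/FoxO1 floxed mice, and the difference was 0.10 ± 0.20. After refeeding that difference was -0.23 ± 0.19. Its near copy H2ac19 differed between LIRKO and IR floxed liver by -0.26 ± 0.15, -0.24 ± 0.14 and -0.36 ± 0.16, with overlapping values and adjusted p of 0.19 or above (limma).

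**Figure D4:**
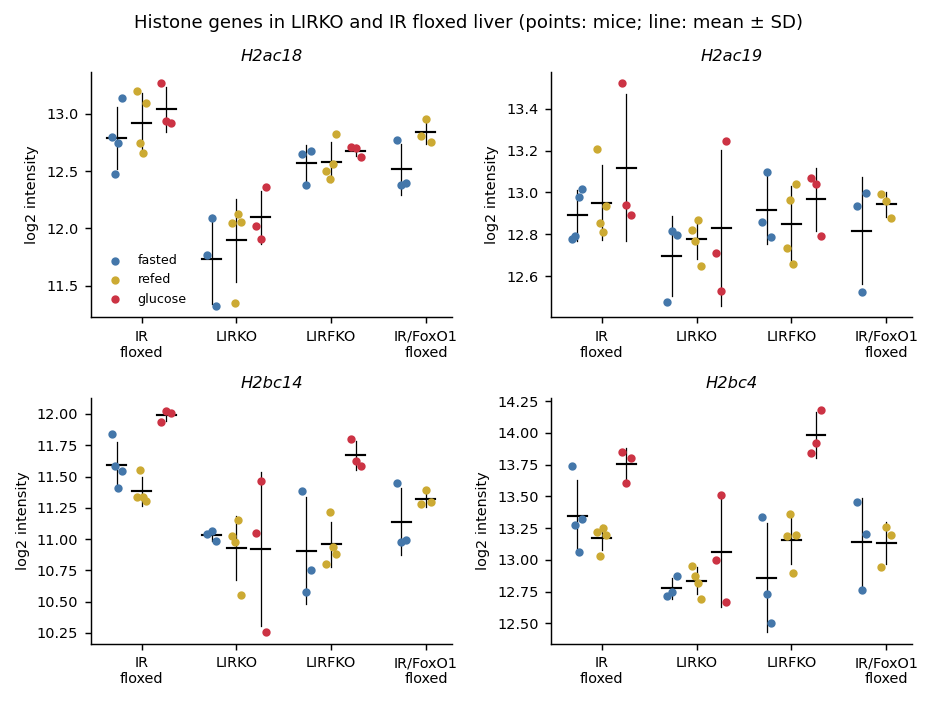
Log2 intensity of H2ac18, its near copy H2ac19, and the H2B genes H2bc14 and H2bc4 in each mouse by genotype (horizontal axis) and feeding state (colour), with group mean ± SD. All LIRKO mice lie below all IR floxed mice of the same state for H2ac18, and the H2ac19 values overlap.

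Other core histone genes were lower in LIRKO liver as well. In fasted mice 3 of 50 genes passed, all lower, where 8.06% (4.14% higher and 3.92% lower) of all genes did: H2ac18, H3c3 (-0.43 ± 0.13, adjusted p 0.0347) and H2bc6 (-0.49 ± 0.15, 0.047), both from limma. In refed mice 5 were lower and 1 higher, where 11.6% (6.95% higher and 4.66% lower) of all genes passed. Lower were H2ac18, H3c3 (-0.44), H4c8 (-0.46), H3c14 (-0.55) and H3c15 (-1.34), and H1f2 was higher by 1.19 ± 0.37 (adjusted p 0.0354, limma). In glucose mice 9 were lower and 0 higher, where 8.3% (4.39% higher and 3.91% lower) of all genes passed, and they included H2bc14, at 11.05, 11.46 and 10.25 against 11.94, 12.02 and 12.01 in IR floxed mice (-0.91 ± 0.19, adjusted p 0.00254, limma). H3c14 (-0.99 ± 0.20), H2bc21 (-0.36 ± 0.08), H3c15 (-1.90 ± 0.47) and H3c4 (-0.50 ± 0.13) were among the 9 too, and the IR floxed glucose mice are those that led to the choice of genes. 10, 14 and 15 of the 50 genes were above 0 in the fasted, refed and glucose comparisons, with medians of -0.17, -0.12 and -0.19 against 0.00, -0.003 and -0.003 for all genes. The histone genes called in either direction were 6% in fasted, 12% in refed and 18% in glucose mice, so the first 2 shares are near those of all genes. Of the 8 hepatocyte markers 1, 1 and 2 were lower in the same comparisons and 0 higher, with medians of -0.11, -0.29 and -0.71, and their part in the histone values was not tested.

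Many of these calls rested on single mice or on the model. With slide as a term H2bc6 (0.0945) and H3c3 (0.065) in fasted mice and H3c14 (0.0635) in refed mice no longer passed, and H2bc6 stood at 0.0509 without IRF.fl_Fast_523. Without the dye term and the array block H2ac18 was the only refed call kept. In the fasted comparison 1 gene passed without IR.fl_Fast_552 or IR.KO_Fast_545 or IR.KO_Fast_550. In the refed one 2 passed without IR.KO_Refed_553 or IR.fl_Refed_562, and 1 without IR.fl_Refed_508. H3c15 and H3c14 in refed mice became -0.70 (adjusted p 0.364) and -0.24 (0.482) without IR.fl_Refed_562, and H3c15 in glucose mice became -0.98 without IR.fl_GTT_699. In glucose mice H3c14 became -0.54 (adjusted p 0.0838) without IR.fl_GTT_699, H2bc21 lost its call without IR.fl_GTT_699 (0.0604) or IR.KO_GTT_667 (0.0504), and H3c4 lost it without IR.fl_GTT_691, IR.KO_GTT_667 or IR.KO_GTT_690 (0.0701 to 0.0837). H2bc14 kept its call without any 1 mouse. All adjusted p are from limma. In the refed comparison 10 of 11 macrophage and Kupffer cell markers rose in LIRKO liver. Their mean was 9.32 to 9.47 in refed LIRKO mice and 7.96 to 8.24 in refed IR floxed mice, and its part in the histone values was not tested. In fasted mice the same mean was 8.69 to 9.03 against 8.32 to 8.66 with no marker past the threshold, and the ranges did not overlap.

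With both genes deleted, no histone gene passed against its own floxed line. In fasted mice 0 of 50 passed in the limma fit, with 0 at an unadjusted p under 0.05, where 0.00445% of all genes passed. In refed mice 0 of 50 passed in the limma fit, with 0 unadjusted, where 0.378% of all genes did. The values ran from -0.45 to 0.35 in fasted and from -0.43 to 0.53 in refed mice. The fasted comparison includes IRF.fl_Fast_523, and its count was 0 without that mouse too.

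The 10 linker histone genes gave 2 calls over the 19 comparisons. H1f2 was the linker gene with the widest range, from 7.98 to 11.59 over the 37 mice, and H1f4 ran from 8.06 to 10.79. Both were of H1f2, 1 of 10 in comparisons where 6.38% and 11.6% of all genes passed, higher after glucose than after refeeding in IR floxed liver, and higher in refed LIRKO than in refed IR floxed liver. The first of these calls was lost without IR.fl_Refed_508 (0.0964) or IR.fl_GTT_699 (0.0985) or IR.fl_GTT_691 (0.294). The second was lost without IR.fl_Refed_508, IR.fl_Refed_506 or IR.fl_Refed_562 or IR.KO_Refed_558 or IR.KO_Refed_564 (adjusted p 0.0653 to 0.117, limma). H1f1, H1f3, H1f5, H1f7, H1f10 and H1f11-ps had means between 5.38 and 5.84 and passed in no comparison, and neither did H1f4, H1f6 or H1f8.

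No listed gene of DNA copying passed the test after glucose against the fasted mice. Of 29 measured genes of S phase and DNA replication, 0 rose and 0 fell in each of the 3 genotypes. Their medians were -0.04 in IR floxed, -0.20 in LIRKO and 0.08 in LIRFKO liver. In these comparisons 0.16%, 0.596% and 0.654% of all genes passed, so counts of 0 in a list this short say little. Pcna, the sliding clamp of DNA polymerase, was 9.46 ± 0.30 in fasted and 9.29 ± 0.02 in glucose LIRFKO mice (SD, n = 3 each). On refeeding, 1 of 29 rose and 1 fell in IR floxed liver and 0 changed in IR/FoxO1 floxed liver, where 3.61% and 3.54% of all genes passed. 3 of 29 rose in LIRKO liver and 6 in LIRFKO liver, where 1.85% and 1.81% of all genes passed, among them Fen1 (1.07 ± 0.20), which processes lagging-strand fragments, and Prim1 (0.79 ± 0.16), a primase subunit, in LIRFKO. 14 of 29 were lower after glucose than after refeeding in LIRKO liver, where 6 histone genes were higher and 12.6% of all genes passed. 14 of 29 were higher and 1 lower in refed LIRKO than in refed IR floxed liver, where 11.6% of all genes passed. Of 18 genes of G2 and mitosis, 3 rose after glucose in LIRFKO liver: Cdc20 (0.73 ± 0.14), Aurka (0.60 ± 0.14) and Cenpe (0.44 ± 0.11). The mean over the 18 was 6.16, 5.91 and 6.06 in IRF.KO_GTT_726, IRF.KO_GTT_727 and IRF.KO_GTT_725 and 5.78 to 5.87 in the fasted mice, and only 3 of the 18 are above the median level. Mki67, a marker of cycling cells, differed by 0.53 ± 0.14 there, with an adjusted p of 0.0686 (limma). Against refed mice, Mki67 was higher after glucose by 0.55 ± 0.13 in LIRFKO (adjusted p 0.0127) and 0.48 ± 0.13 in LIRKO liver (0.0151), both from limma, and its part in the histone values was not tested.

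Against the fasted mice, few genes that make, process or carry histones passed the test after glucose. The shares of all genes that passed there were also low, 0.16% in IR floxed, 0.596% in LIRKO and 0.654% in LIRFKO liver. Low counts in lists this short say little. Of 20 measured genes for the transcription and 3′ end processing of histone messages, 1 (Clp1, a cleavage factor subunit, -0.81 ± 0.19) fell after glucose in LIRKO liver and 0 changed in IR floxed and LIRFKO liver. Slbp, which binds the stem-loop, was 6.39 ± 0.16 in fasted and 6.13 ± 0.36 in glucose LIRFKO mice, and Npat, the activator of histone gene transcription, was 5.61 ± 0.12 and 5.59 ± 0.06 (SD, n = 3 each). Of 10 replacement and variant histone genes and of 17 histone chaperones, 0 changed after glucose in any of the 3 genotypes. Against refed mice in LIRKO liver, where 12.6% of all genes passed, 3 of 17 chaperones were higher after glucose and 3 lower, and 2 of 10 replacement and variant histone genes were higher and 1 lower. Between fasted and glucose LIRFKO mice, H3f3a, which encodes the replacement histone H3.3, was 10.34 ± 0.29 and 10.36 ± 0.14, and H3f3b, its second gene, was 11.76 ± 0.07 and 11.33 ± 0.10. H2az1, an H2A variant gene, was 11.81 ± 0.19 and 12.14 ± 0.14 (SD, n = 3 each).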

How the data were processed

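The deposited values are log2 intensities of single dye channels, made by the authors with R 3.1.0 and limma 3.20.1, per the submitters' processing notes. How background and normalization were handled is not given in the sources used here. Values ran from 5.07 to 16.0, the range of a log2 scale. Signal over background was not used here, so the number of mice limits the precision. Of 45220 features, 33026 named 1 gene and 12194 none, and a gene was read from its feature of highest mean.

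Groups came from sample titles, and mice were separate animals. A linear model (limma 3.58.1, statmod 1.5.0, R 4.3.3) gave every group a mean over 37 mice and 22485 genes, with dye as a term and the 20 arrays as a random block (correlation 0.358). Adjusted p are Benjamini-Hochberg values across all genes, separately for each of 19 comparisons, and a gene was called under 0.05. Errors of differences are SE of this model, which was tested on simulated data. No filter on level was used.

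The histone genes and all gene lists were chosen with earlier results of these data known. Named were the 6 largest rises and 3 largest falls of each glucose or refeeding comparison, called genes (at most 6 of smallest p in each comparison), the 4 highest and 2 lowest means, H3c15, H2ac23, the linker histones, up to 3 genes of smallest p in each list, and Slbp, Npat, Mki67, Pcna, H3f3a, H3f3b and H2az1. H1f0 was not analysed here. H2ac18 beside LIRFKO mice, H2ac19, the second probes and single neutrophil genes were chosen after their values were seen. Alternatives were no dye term and no array block, slide as a term, quantile normalization, the mean of all probes, genes above the median level alone, leaving out IRF.fl_Fast_523, and leaving out each mouse in turn.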

Additional observations from a re-analysis of the deposited data

Results flagged for a closer look

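In groups of 4 mice, the gap of 1 mouse to the nearest other was large for the group's range in 5 of 128 gene and group pairs, and chance flags about 1 in 20. They were H3c15 in IR.fl_Fast_486 (8.07, others up to 7.21), H2bc14 in IR.fl_Refed_508 (11.56, others up to 11.34), H1f4 in IRF.KO_Refed_478 (9.11, others up to 8.80), H2ac18 in IR.KO_Refed_558 (11.35, others from 12.05) and H2ac4 in IR.KO_Refed_565 (6.75, others from 7.47).

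The sample with conflicting labels, IRF.KO_GTT_724, was in no comparison. Its H2ac11 was 11.83, its H2ac23 11.24, its H2ac4 8.68, its H2bc18 6.25 and its H3c15 8.74. The highest values in fasted floxed mice were 10.99, 9.57, 6.97, 6.01 and 8.07 in that order. These genes were listed because they lay above the fasted floxed mice. H2bc14 (11.79) and H2bc4 (13.71), also called after glucose, did not. Both were below IR.fl_Fast_542 (11.84 and 13.74). Its condition was not inferred from these values.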

How the results depend on the processing

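Counts below are histone genes past the threshold. With no dye term and no array block, glucose against fasted gave 0 in IR floxed, 0 in LIRKO and 3 in LIRFKO liver, refed against fasted 0 in IR floxed and 0 in IR/FoxO1 floxed, glucose against refed 0 in IR floxed, 2 in LIRKO and 7 in LIRFKO, and LIRKO against IR floxed 1 in refed mice. With slide as a term, the count was 1 for glucose against fasted in IR floxed, 2 for glucose against refed in IR floxed and 1 for LIRKO against IR floxed in fasted mice. Over genes above the median level alone, it was 1 for glucose against fasted in LIRKO, 2 for refed against fasted in IR/FoxO1 floxed and 5 for LIRKO against IR floxed in fasted mice. The median difference there was 0.465 for glucose against fasted and 0.356 for glucose against refed in LIRFKO, -0.338, -0.253 and -0.343 for LIRKO against IR floxed in fasted, refed and glucose mice, and 0.211 for the glucose response of LIRFKO less LIRKO. Fewer genes are tested in that setting, and the cause of the other changes was not tested. Without IRF.fl_Fast_523, refed against fasted gave 0 in IR floxed and 0 in IR/FoxO1 floxed liver. There were 96 pairs of a named gene and a comparison. Many of them were not called in the main fit and could not lose a call, so 96 is not the base of the losses. Calls were lost by 26 pairs with no dye term and no array block and by 11 with slide as a term. They were lost by 4 without IRF.fl_Fast_523, 1 with the mean of all probes and 0 with quantile normalization. Over genes above the median level 3 pairs gained a call. Quantile normalization and the mean of all probes moved no count by over 1.5 times.

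Leaving out 1 mouse at a time, the count for glucose against fasted ran from 0 to 6 in IR floxed, 0 to 3 in LIRKO and 1 to 6 in LIRFKO liver. For refed against fasted it ran from 0 to 2 in IR floxed and was 0 each time in IR/FoxO1 floxed liver. For glucose against refed it ran from 0 to 7 in IR floxed, 0 to 7 in LIRKO and 3 to 10 in LIRFKO liver. For LIRKO against IR floxed it ran from 1 to 4 in fasted and 1 to 7 in refed mice, and the median in glucose mice ran from -0.195 to -0.046. For the glucose response of LIRFKO less LIRKO it ran from 0 to 1. H4c14 in refed against fasted LIRKO liver ran from -0.384 to 0.028, and turned positive without IR.KO_Fast_505. H2bc6 in glucose against fasted LIRKO liver ran from -0.366 to 0.005, and turned positive without IR.KO_GTT_690.

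No paired analysis was possible because the groups share no mouse numbers, so matching was limited to the block on arrays, the slide term and the within-slide differences. The 22 dim genes leave little room to see a fall, and 3 or 4 mice a group limit what a test can show.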
